A study of Mus musculus with 40 samples.

Results

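The clustered protocadherin genes are the 58 genes whose symbols, in the deposited count files of both stages, fall into the Pcdha, Pcdhb and Pcdhg series: 14 alpha genes (Pcdhac1 and Pcdhac2 among them), 22 beta genes and 22 gamma genes, out of 29787 gene symbols in all. Their RNA was measured in 20 immortalised brown preadipocyte lines from C57BL/6 mice, named A2, A3, A5, A6, B1, B3, B4, B5, B6, C2, C3, C4, C5, C6 and D1 to D6, used at passages 6 to 12. Every line gave 1 undifferentiated library and 1 library after 8 days of differentiation, which was started by adding insulin, T3, indomethacin, dexamethasone and IBMX and continued in medium with T3 and insulin. All lines share the strain, the tissue of origin and immortalisation; the labels do not say how the lines were immortalised, what the letter of a line stands for or whether a line is 1 clone. With 1 library per line and stage, the spread between cultures of the same line was not measured.

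Clustered protocadherins are adhesion proteins that pair with identical isoforms on the neighbouring cell and are best known for giving neurons individual surface identities. The 3 clusters lie side by side on the same chromosome, in the order alpha, beta, gamma. Each alpha or gamma isoform has its own promoter and variable exon, which is spliced to exons shared by the whole cluster, whereas each beta gene stands as an exon of its own. In most neurons, promoters are chosen at random with the help of CTCF, cohesin and DNA methylation. The C-type isoforms at the end of the alpha and gamma clusters (Pcdhac1, Pcdhac2, Pcdhgc3, Pcdhgc4 and Pcdhgc5) are instead often expressed constitutively. Per cell, the choice cannot be read from these libraries, which pool the RNA of many cells of a line, and in bulk RNA fewer cells with an isoform and less RNA per cell cannot be told apart. All members lie on chromosome 18 in the RefSeq annotation, from which the order of the genes is taken; no sequence is shown.

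Libraries held 19535806 to 28074918 gene counts in the undifferentiated and 27181830 to 43113838 in the differentiated group, of which the members took 2967 to 8699 and 4149 to 18133 counts. Levels are given as CPM (counts scaled to a common library size) after TMM scaling, and an isoform is called on in a library at 1 CPM or more. A count of 0 in a library allows up to 0.107 to 0.154 CPM before and up to 0.0696 to 0.110 CPM after differentiation, as a limit on counting error alone. Adipocyte markers summed to a median of 62.5 CPM before and 5405 CPM after differentiation, with 163 CPM in line C6 and 1241 CPM in line D5 as the lowest differentiated libraries. Of 7 neuron markers, Tubb3 alone averaged 1 CPM or more in either group, and Rbfox3 and Snap25 had a median of 0 before differentiation. The 2 stages were counted differently: reads of low quality and unaligned reads were tallied at 0 in every differentiated library and above 0 in every undifferentiated one. The stage and the counting therefore cannot be told apart.

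The alpha cluster was close to silent. Pcdha1, Pcdha4, Pcdha6 and Pcdhac1 had 0 counts in all 40 libraries, which allows up to 0.00629 CPM over the undifferentiated and 0.00434 CPM over the differentiated group. The 13 alpha genes other than Pcdhac2 had 91 counts over all libraries together, and none of them exceeded 0.156 CPM in any library. Pcdhac2, the C-type isoform next to the beta cluster and the isoform that serotonergic neurons rely on, was the only alpha gene that passed the filter on low counts (at least 10 counts in at least 2 libraries). Its level was 0 to 1.75 CPM with a median of 0.233 CPM before differentiation and 0.0290 to 0.333 CPM with a median of 0.0999 CPM after it. It was on in 2 lines, C6 at 1.75 CPM and D5 at 1.55 CPM, and in both it was off after differentiation, at 0.297 and 0.216 CPM. Over the 20 lines Pcdhac2 fell (log2 fold change -1.56 ± 0.418, SE; edgeR quasi-likelihood F-test, adjusted p = 0.000865), although the ranges of the groups overlap and 3 lines were higher after differentiation.

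In the beta cluster, the genes at the end facing the gamma cluster carried nearly all of the RNA. Pcdhb14 to Pcdhb22, 9 genes, summed to 3.91 to 48.1 CPM with a median of 13.6 CPM before differentiation and to 7.83 to 109 CPM with a median of 21.4 CPM after it. The 13 genes Pcdhb1 to Pcdhb13 summed to medians of 1.62 and 2.27 CPM. Among these 13, Pcdhb5 alone was on in any library, and the others reached at most 0.970 CPM. In all, 13 of the 22 beta genes were on in no library.

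**Figure D1:**
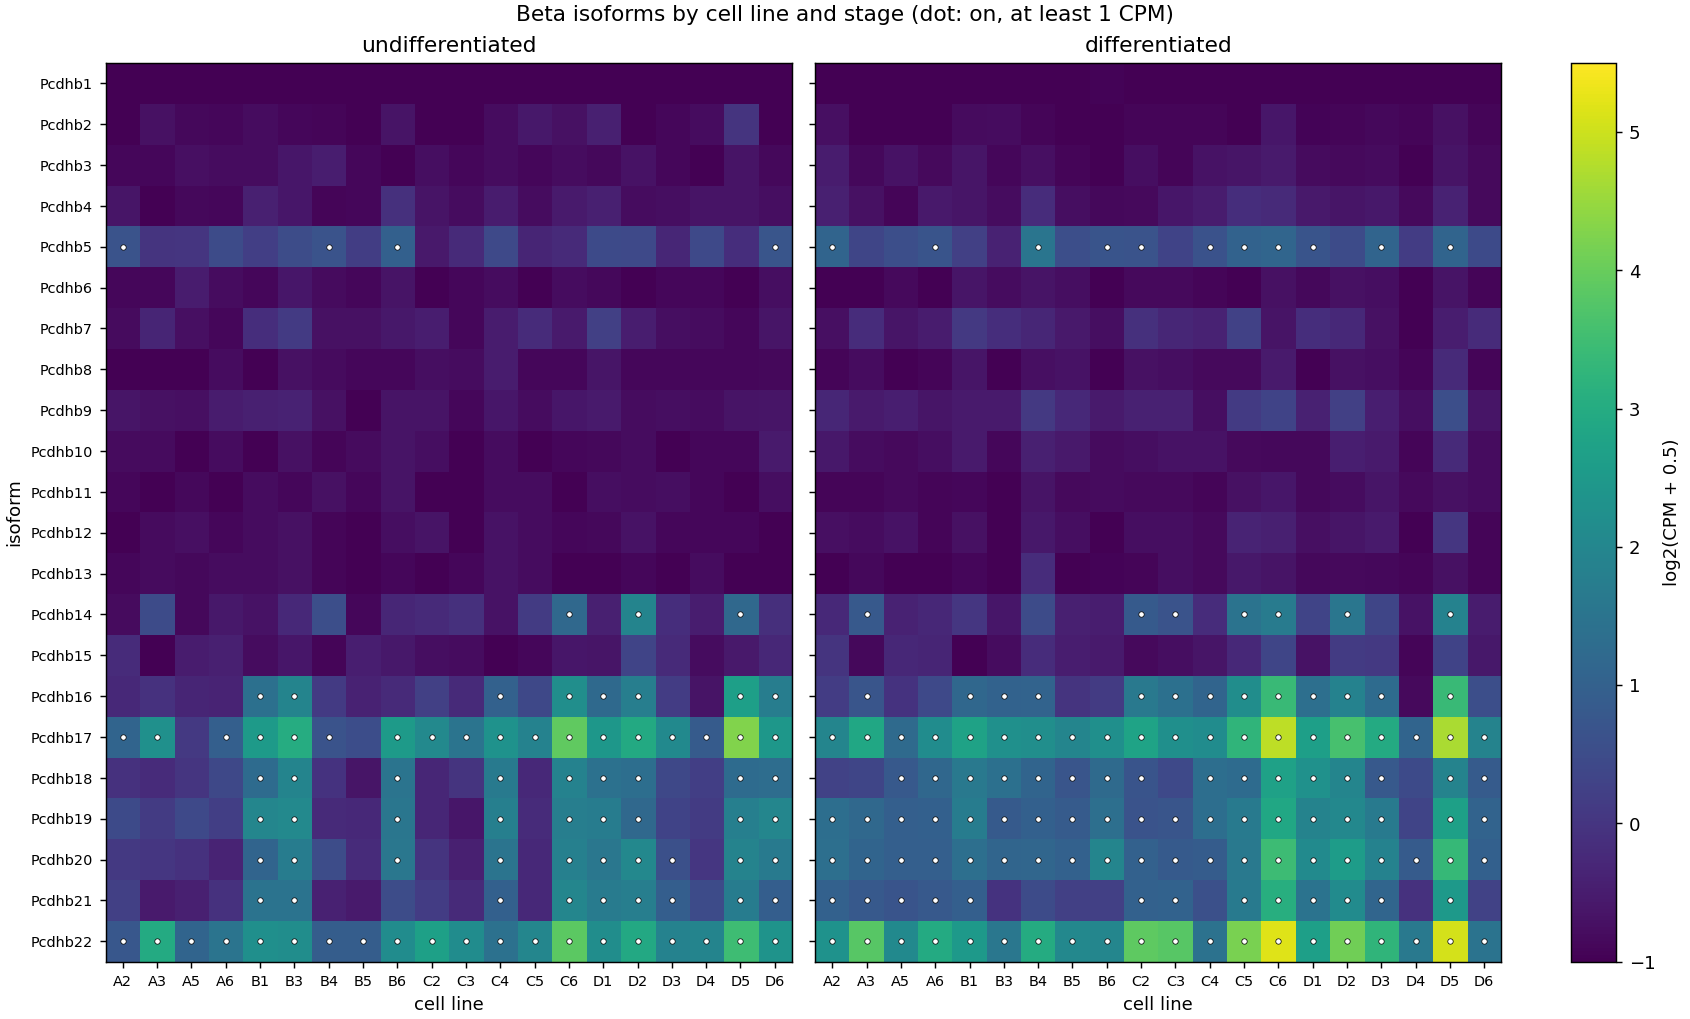
Level of the 22 beta genes (rows, in chromosomal order) in each line (columns) before and after differentiation, as log2(CPM + 0.5); a dot marks an isoform that is on (at least 1 CPM). Dots lie in Pcdhb5, in Pcdhb14 and from Pcdhb16 to Pcdhb22, with the brightest columns in C6 and D5 and more dots after differentiation (139 against 90).

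Before differentiation, 9 beta genes were on in at least 1 line, and Pcdhb22 and Pcdhb17 were on in the most lines. Pcdhb22 was on in all 20 lines at both stages, at 1.20 to 13.95 CPM with a median of 3.99 CPM before and 2.25 to 36.1 CPM with a median of 6.62 CPM after differentiation. Pcdhb17 was on in 18 lines before and 20 after, at 0.547 to 18.7 CPM (median 4.01 CPM) and 1.63 to 28.3 CPM (median 4.24 CPM). Per kilobase of coding sequence in the variable exon, either Pcdhb17 or Pcdhb22 led the cluster in each library: Pcdhb17 in 11 lines and Pcdhb22 in 9 before differentiation, and 5 and 15 lines after it. The leading gene was the same in both stages in 14 lines, and in the 6 others (A2, C6, D1, D2, D3 and D5) it went from Pcdhb17 to Pcdhb22, with the earlier leader in rank 2. The leader and its changes depend on the length used. The whole exon has 4660 bases in Pcdhb17 and 6609 in Pcdhb22. Per kilobase of it, 3 beta genes led at each stage, and 15 lines kept their leader. The leader took 17.5 to 46.0% of the cluster's per-kilobase level before and 19.1 to 48.4% after differentiation, so that no library was reduced to a single beta gene. Close copies may lose reads here, since reads without a unique alignment were tallied apart from the genes. Of the 100-base stretches of the Pcdhb21 exon 7.73% recur in another member, and of those of Pcdhb22 5.47%.

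The other beta genes that were on anywhere sat lower. Pcdhb5, the only one far from the rest, was at 0.178 to 1.48 CPM (median 0.746 CPM) before and 0.276 to 2.37 CPM (median 1.06 CPM) after differentiation, on in 4 and 11 lines. Pcdhb14 was on in 3 and 7 lines, at up to 3.33 CPM in D2 before and 3.21 CPM in D5 after differentiation. Pcdhb18 had a median of 0.832 CPM (0.150 to 3.30 CPM) before and 1.69 CPM (0.718 to 6.07 CPM) after differentiation, and was on in 9 and 16 lines. Pcdhb19 went from a median of 0.856 CPM (0.161 to 3.69 CPM, on in 9 lines) to 1.91 CPM (0.755 to 6.78 CPM, on in 19 lines), and Pcdhb21 from 0.908 CPM (0.188 to 3.43 CPM, on in 9 lines) to 1.37 CPM (0.453 to 7.91 CPM, on in 13 lines). In each of these genes the ranges of the stages overlap, and C6 held the highest differentiated level of Pcdhb18, Pcdhb19 and Pcdhb21.

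Beta genes passed 1 CPM with differentiation more often than they dropped below it. Lines had 1 to 8 beta genes on with a median of 3.5 before differentiation, and 3 to 9 with a median of 7 after it. Of 90 pairs of a line and a beta gene that were on before, 85 (94.4%) stayed on, 5 were lost and 54 were gained. Pcdhb22 and Pcdhb17, on in 20 and 18 lines before and kept in all of these, carry part of this share. The same share over all genes was not measured. The gains came mostly from lines with few beta genes on at the start: C2 and C5 each went from 2 to 9, and A3, A5, A6 and C3 each gained 5. Only 9 beta genes were on in any line at either stage, and whether the starting number of a line limits its gains was not tested. D6 went the other way, from 8 to 5, losing Pcdhb5, Pcdhb16 and Pcdhb21. Pcdhb19 and Pcdhb20 were each gained in 10 lines and lost in none.

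Of 14 beta genes tested, 5 rose and 0 fell with differentiation (edgeR, adjusted p under 0.05; 0 fell also at an unadjusted p under 0.05 and with DESeq2), while 43.6% of all 16321 genes tested rose and 37.1% fell. The beta genes that rose were Pcdhb5, Pcdhb9, Pcdhb12, Pcdhb20 and Pcdhb22, and their share is close to that of all genes. The median log2 fold change of the 14 was 0.62, against 0.09 over all genes tested. The log2 fold change was 1.19 ± 0.352 for Pcdhb22 (SE; adjusted p = 0.00228), with 16 of 20 lines higher after differentiation. Pcdhb20 ranged from 0.241 to 3.59 CPM before (median 0.970 CPM) and from 1.304 to 10.4 CPM after (median 1.68 CPM), a log2 fold change of 0.98 ± 0.358 (adjusted p = 0.0123), with 17 lines higher. The ranges of the stages overlap for both genes. With the line as a replicate block, which compares each line with itself, 9 beta genes rose, Pcdhb14, Pcdhb16, Pcdhb17, Pcdhb18 and Pcdhb19 among them and Pcdhb12 no longer (adjusted p = 0.0761), against 44.5% of all genes in that fit.

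Lines C6 and D5 stood apart in the beta cluster. Their beta genes summed to 48.6 and 49.6 CPM before differentiation and to 113 and 102 CPM after it, where no other line exceeded 33.4 and 53.6 CPM. Pcdhb16, on in 8 lines before and 13 after, was highest after differentiation in D5 (10.1 CPM), followed by C6, and at most 4.03 CPM in the other lines. These are also the 2 differentiated libraries with the lowest adipocyte marker sums, and with the highest endothelial sums (31.9 and 24.2 CPM, against a median of 6.02 CPM; 2 of 5 markers averaged 1 CPM or more, and Cdh5 was at 0.377 CPM or less in every differentiated library). Mesenchymal progenitor markers summed to 2561 CPM in C6, the highest sum, and 1980 CPM in D5 (median 728 CPM), and smooth muscle markers to 608 CPM in C6, again the highest, and 460 CPM in D5 (median 247 CPM). The part of any of these in the beta levels was not tested.

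The gamma cluster had the highest summed level, and Pcdhgc3 made up most of it. How the authors' counting assigned reads in the exons that all gamma isoforms share is not given in the sources used here, and its part in the share of Pcdhgc3 was not tested. Pcdhgc3, a C-type isoform known in neurons for promoting dendrite branching and in other cells for binding Axin1 and dampening Wnt signalling, was on in all 40 libraries. It measured 75.4 to 217 CPM with a median of 171 CPM before and 125 to 342 CPM with a median of 236 CPM after differentiation. It was higher after differentiation in 18 of 20 lines, the exceptions being B3 (159 to 125 CPM) and D6 (199 to 189 CPM). The rise of Pcdhgc3 was 0.52 ± 0.102 on the log2 scale (SE; adjusted p = 1.45e-05). Its share of all gamma counts was 61.4 to 81.5% with a median of 73.6% before, and 76.3 to 89.1% with a median of 81.1% after differentiation. Per kilobase of variable exon it led the gamma cluster in every library. Pcdhgc3 also varied least across lines of the members tested, with an SD of log2 CPM of 0.36 before and 0.32 after, and its difference between lines was not called (adjusted p = 0.0902; 0.0489 without line B3, 0.0175 with DESeq2).

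The other C-type gamma isoforms were lower, and Pcdhgc4 alone of them passed the test between stages. Pcdhgc4, needed for the survival of neurons in mouse, was at 0.267 to 5.14 CPM (median 2.57 CPM) before and 0.828 to 30.5 CPM (median 5.85 CPM) after differentiation. It was higher after differentiation in all 20 lines, least in B3 (0.807 to 0.828 CPM), and its log2 rise was 1.86 ± 0.314 (adjusted p = 1.12e-06), the largest of any member tested. The highest differentiated levels were in B4 at 30.5 CPM, D3 at 21.1 CPM and D4 at 17.5 CPM. Pcdhgc5 was at 0.644 to 12.0 CPM (median 4.71 CPM) before and 0.989 to 15.3 CPM (median 6.66 CPM) after, higher in 12 lines, and its log2 fold change of 0.37 ± 0.301 did not pass the test (adjusted p = 0.257). Line A3 had the most Pcdhgc5 at both stages.

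**Figure D2:**
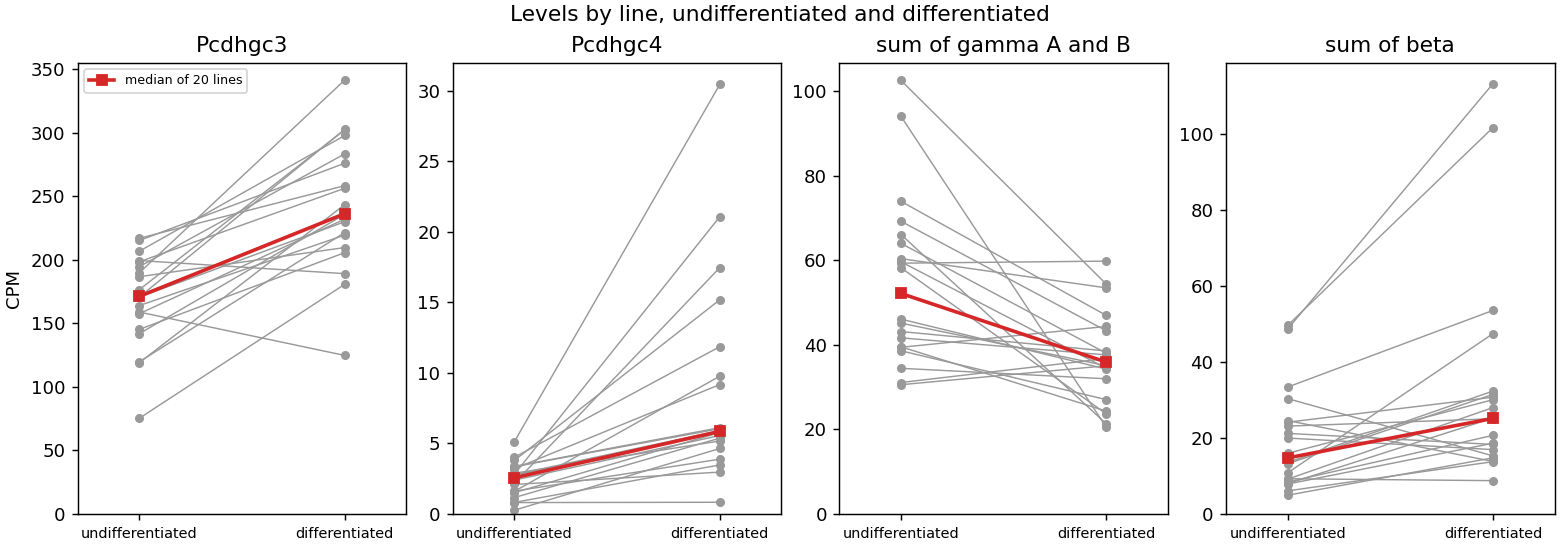
CPM of Pcdhgc3, of Pcdhgc4, of the 19 gamma A and B isoforms summed and of the 22 beta genes summed, before and after differentiation; grey lines join the 2 libraries of each line, red squares are medians of 20 lines. Pcdhgc3 went up in 18 lines and Pcdhgc4 in 20, whereas the gamma A and B sum went up in 4.

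The 19 gamma A and B isoforms (12 of subfamily A and 7 of subfamily B) formed a mosaic, with 18 different sets on among the 20 lines at either stage. Together they summed to 30.6 to 102 CPM with a median of 52.1 CPM before, and 20.5 to 59.8 CPM with a median of 35.9 CPM after differentiation, higher after it in 4 lines only (C3, C5, C6 and D3). A line had 6 to 13 of them on with a median of 8 before, and 5 to 12 with a median of 8 after differentiation. Pcdhgb2 alone was on in all 20 lines at both stages. Pcdhga9 and Pcdhga10 were on in no library, and Pcdhga12 only after differentiation in C3 and C6. Isoforms near 1 CPM make the sets sensitive to small moves: Pcdhga5 in A6 went from 0.993 to 1.0002 CPM and counts as gained. How many different sets other genes of like level would give was not measured.

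The isoforms fall into groups by the number of lines that used them. Besides Pcdhgb2, 5 isoforms were on in 12 or more lines at both stages: Pcdhga1 (17 lines before, 16 after), Pcdhga4 (17 and 18), Pcdhgb6 (18 and 17), Pcdhga6 (13 and 17) and Pcdhgb4 (17 and 12). Pcdhga1 measured 0.312 to 6.98 CPM (median 2.18 CPM) before and 0.605 to 4.58 CPM (median 1.76 CPM) after differentiation, and Pcdhga4 0.300 to 8.26 CPM (median 3.03 CPM) and 0.499 to 7.14 CPM (median 2.81 CPM). Pcdhgb6 measured 0.538 to 12.2 CPM (median 4.80 CPM) and 0.236 to 8.23 CPM (median 2.78 CPM), and Pcdhga6 0.538 to 7.01 CPM (median 1.26 CPM) and 0.236 to 7.18 CPM (median 2.22 CPM). A middle group was on in 7 to 12 lines: Pcdhga3 (12 and 9 lines) at up to 12.6 CPM before and 11.8 CPM after differentiation, both in D5, Pcdhgb7 (11 and 7) at up to 4.99 and 5.59 CPM, both in C6, Pcdhgb5 (9 and 8) at up to 7.74 CPM in D6 and 6.51 CPM in D3, Pcdhga2 (9 and 8) at up to 7.45 CPM in B3 and 3.32 CPM in B1, and Pcdhga7 (7 and 8) at up to 19.4 and 5.11 CPM, both in D2. Their medians lay between 0.514 and 1.41 CPM in both groups. Pcdhga5 was on in 10 and 11 lines, and the rest in 5 or fewer. Pcdhgb8 reached 1.81 CPM before and 1.62 CPM after differentiation, both in C3, and Pcdhgb1 3.92 and 1.601 CPM, both in B4. Annotations of Pcdhgb8 differ: a transcribed pseudogene in RefSeq, but a first exon with 2421 coding bases in GENCODE.

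Of the 37 members tested, 29 differed between lines (edgeR, 19 line coefficients next to the stage, adjusted p under 0.05), against 29.6% of all genes. They comprise 16 of the 19 gamma A and B isoforms, Pcdhgc4, Pcdhgc5, 10 of 14 tested beta genes and Pcdhac2. Since a member could pass the filter through the few libraries in which it is high, this count describes the members tested and supports nothing further. The SD of log2 CPM between undifferentiated lines had a median of 1.24 over the gamma A and B isoforms, 1.08 over the beta genes tested and 0.32 over all genes tested. These lists were not matched by level, and Pcdhgc3, the member with the highest level, had an SD of 0.36. Without C6 and D5, 24 members differed between lines, and Pcdhac2, Pcdhb19, Pcdhb20, Pcdhb21 and Pcdhb22 no longer did (adjusted p = 0.131, 0.136, 0.0741, 0.299 and 0.0756). The calls of Pcdhb19 and Pcdhb21 also depended on single lines, as each was lost without any of 5 lines (B5, C2, C6, D4 or D5 for Pcdhb19; B4, B5, C6, D2 or D5 for Pcdhb21), and that of Pcdhgb2 was lost without D2 (adjusted p = 0.0501).

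**Figure D3:**
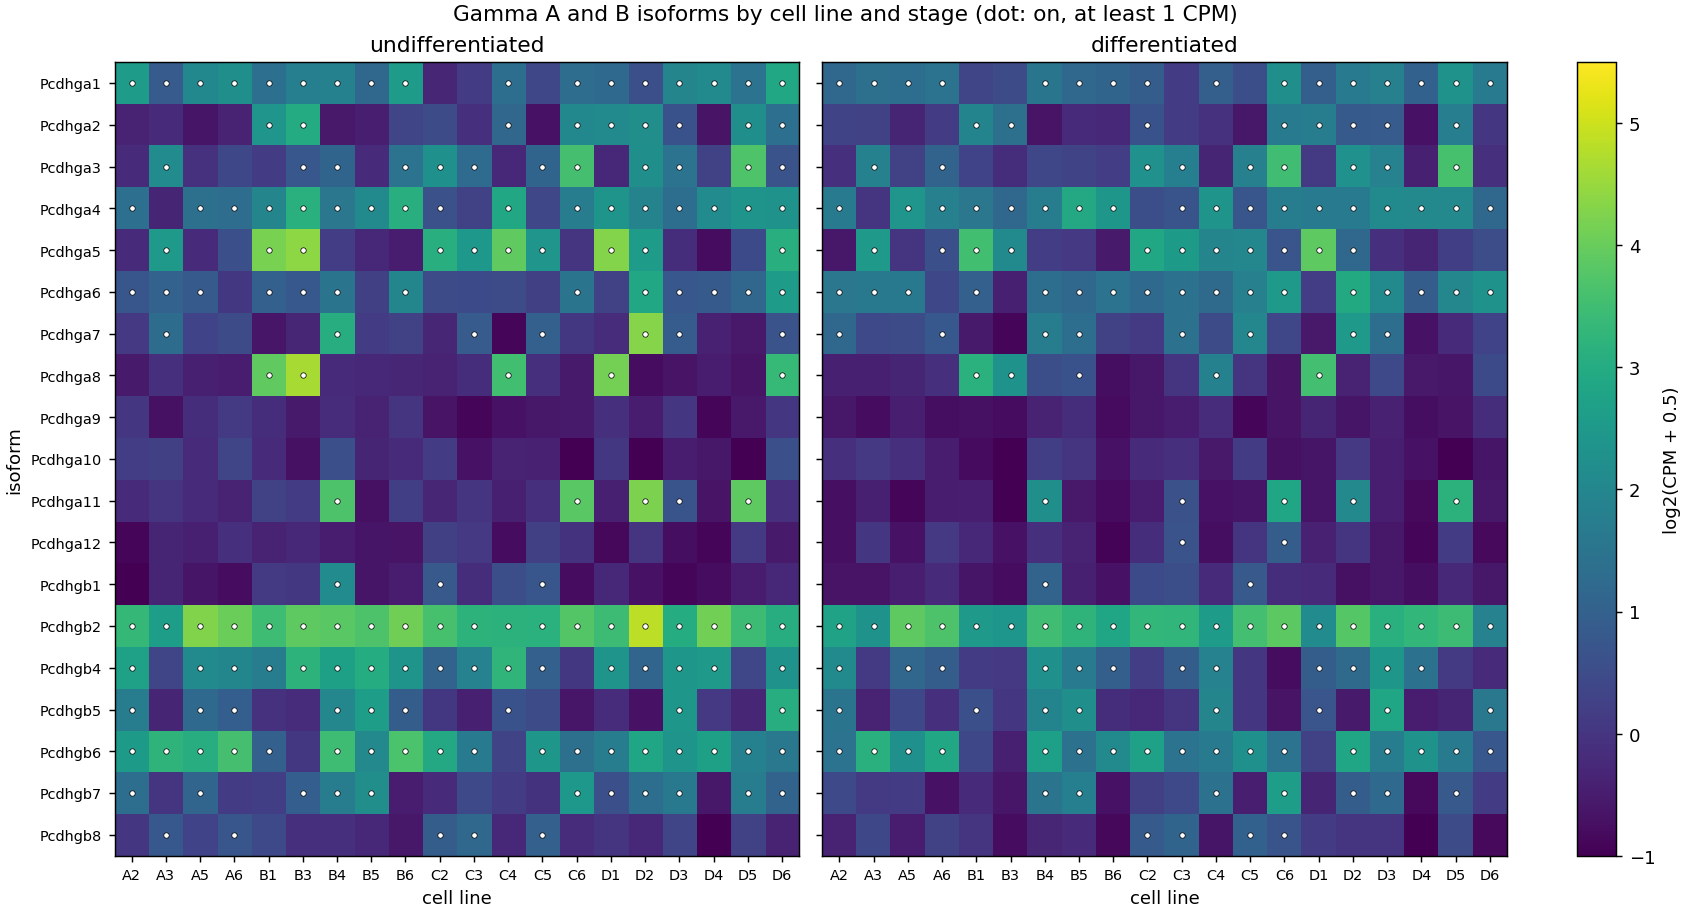
Level of the 19 gamma A and B isoforms (rows) in each line (columns) before and after differentiation, as log2(CPM + 0.5); a dot marks an isoform that is on (at least 1 CPM). Pcdhgb2 is on throughout, whereas Pcdhga8 and Pcdhga11 are on in 5 lines each, 4 of them the same in both panels, and Pcdhga5 in 10 and 11 lines, 9 of them the same.

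Before differentiation, Pcdhga8 and Pcdhga5 were high in some lines and low in the others with no line in between, and Pcdhga11 nearly so. Pcdhga8 was at 14.5 CPM in B1, 24.6 CPM in B3, 11.1 CPM in C4, 17.2 CPM in D1 and 9.72 CPM in D6 before differentiation, and at most 0.419 CPM in the 15 other lines. After differentiation the same 5 lines held 8.44, 4.57, 3.15, 11.2 and 0.881 CPM, and the others at most 1.05 CPM (B5). D6 is thus the line in which Pcdhga8 went off, and D1 and B1 kept the highest levels. Pcdhga11, the isoform before Pcdhgb8 in the cluster, was at 12.4 CPM in B4, 13.8 CPM in C6, 18.02 CPM in D2 and 14.4 CPM in D5, at 1.1 CPM in D3 and at 0.688 CPM or less elsewhere. After differentiation B4, C6, D2 and D5 held 4.18, 6.61, 3.65 and 8.49 CPM, and no other line exceeded 1.02 CPM. The lines of Pcdhga8 and of Pcdhga11 did not overlap in either stage.

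Pcdhga5 split the lines evenly. It was on in 10 lines before differentiation, at 4.73 to 20.6 CPM, and at 0.993 CPM or less in the 10 others, with nothing in between. It was highest in B3 (20.6 CPM), D1 (18.9 CPM), B1 (17.7 CPM) and C4 (14.6 CPM), which are 4 of the 5 lines with Pcdhga8. After differentiation 9 of the 10 lines still had it on, at up to 14.4 CPM in D1, and D6 had gone from 8.07 to 0.938 CPM. Within the 10 lines where it was on, a relation between the levels of the 2 stages did not pass the test (r = 0.40, permutation p = 0.251, Spearman's rho = 0.25, permutation p = 0.494, n = 10). Within the 10 lines where it was off, it did (r = 0.66, permutation p = 0.0362, rho = 0.72, permutation p = 0.0234; p-values not adjusted). Among the lines with Pcdhga5 on, the level was far lower after differentiation in B3 (20.6 to 3.78 CPM) and C4 (14.6 to 3.42 CPM) and about equal in A3 (5.18 to 5.27 CPM) and C3 (5.06 to 5.31 CPM).

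The sets recur in lines of different letters. B1, B3, C4, D1 and D6 had Pcdhga2, Pcdhga5 and Pcdhga8 on before differentiation. A3, C2, C3 and C5 had Pcdhga3, Pcdhga5, Pcdhgb6 and Pcdhgb8 on. C6 and D5 had the same 9 isoforms on, with Pcdhga11 leading at 13.8 and 14.4 CPM and Pcdhga3 at 11.6 and 12.6 CPM, and they are each other's nearest line in both stages (Spearman's rho over the 19 isoforms 0.918 before and 0.921 after). A2 and A5 also had equal sets before differentiation, 8 isoforms with Pcdhgb2, Pcdhgb4 and Pcdhgb6 among them and Pcdhga5, Pcdhga8 and Pcdhga11 off. They were nearest to each other then (rho = 0.951), as were B1 and B3 (rho = 0.925) and B6 and D4 (rho = 0.907). D2 combined Pcdhga7 at 19.4 CPM, its highest level in any library, with Pcdhga11 and with 28.3 CPM of Pcdhgb2. Over pairs of undifferentiated lines, the median rho was 0.430 for 41 pairs of the same letter and 0.398 for 149 pairs of different letters, with ranges that overlap almost wholly. Over all genes tested, too, C6 and D5 were each other's nearest line in both stages (rho = 0.994 and 0.987). So were C3 and C5 (rho = 0.996 and 0.992). Before differentiation, C4 and D1 were nearest to each other (rho = 0.992), and A2 was nearest to A5 (rho = 0.993). In that stage B1 was instead nearest to D1, A5 to B5 and B6 to D6. The shared sets are thus not shown to be particular to these isoforms. The permutation tests below took the lines as independent, which was not tested.

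**Figure D4:**
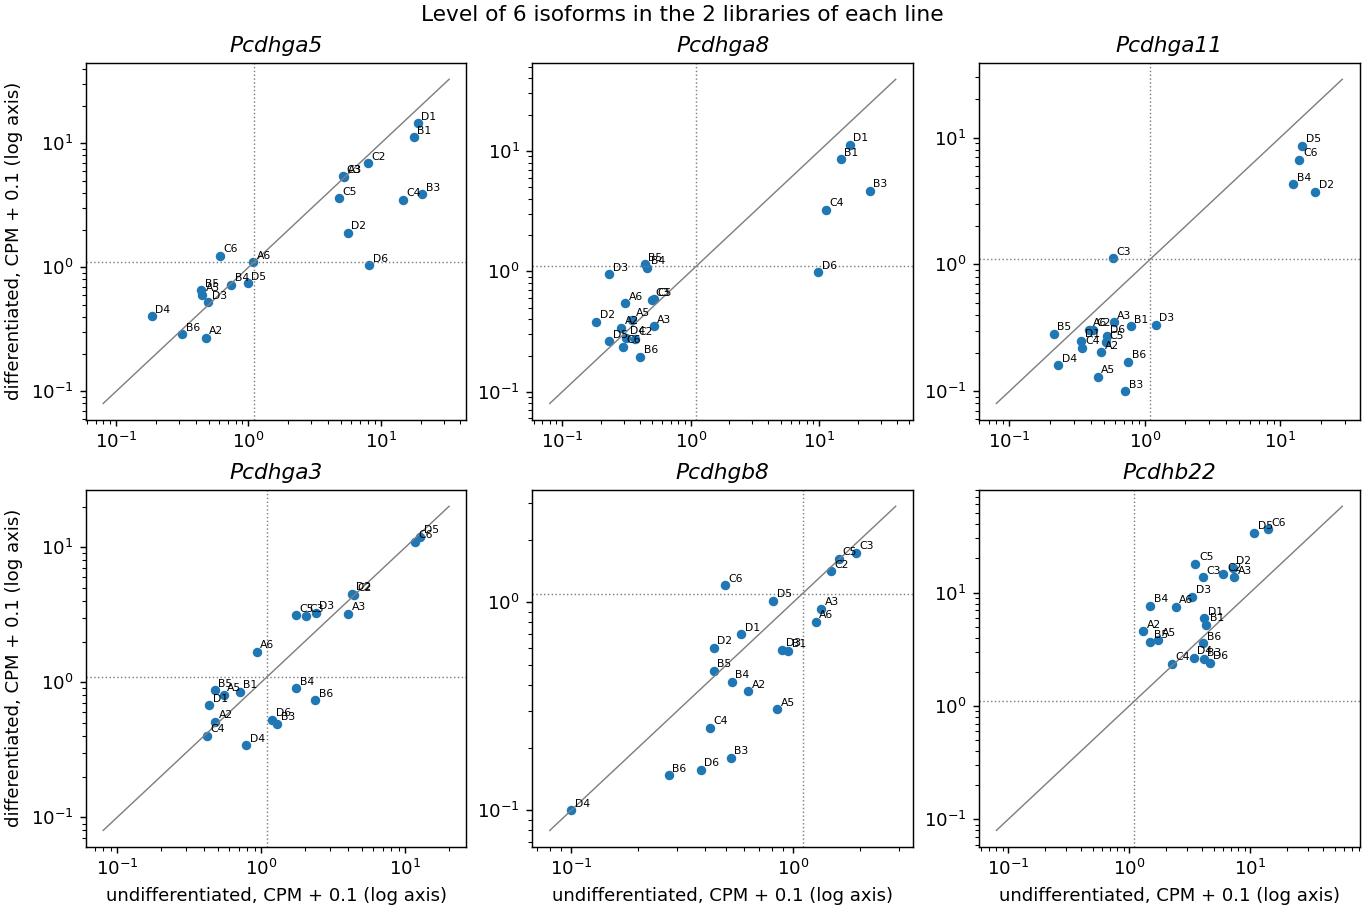
CPM + 0.1 of 6 isoforms in the undifferentiated (x) and the differentiated library (y) of each line, on log axes; the grey line marks equal levels and the dotted lines 1 CPM. For Pcdhga8 and Pcdhga11 the lines form separate groups, with 4 lines on in both stages each; D6 left the upper group of Pcdhga8, and for Pcdhb22 16 of 20 lines lie above the grey line.

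Most gamma A and B isoforms that were on at 1 CPM stayed on through differentiation. Of 178 pairs of a line and an isoform that were on before, 145 (81.5%) stayed on, 33 were lost and 24 were gained. The share depended on the threshold, since at 5 CPM 34 of 68 pairs (50.0%) stayed on. Isoforms on in most lines carry part of the share at 1 CPM: Pcdhgb2 stayed on in 20 of 20 lines, Pcdhgb6 in 16 of 18 and Pcdhga4 in 16 of 17. The same share over all genes was not measured. D2, D4 and D5 kept exactly their sets of 12, 6 and 9 isoforms. Adipocyte markers after differentiation summed to only 1241 CPM in D5, against 4160 CPM in D2 and 5911 CPM in D4 (median of all lines 5405 CPM). Without C6 and D5, 79.4% of the pairs stayed on. The overlap of the on sets of the 2 stages (shared isoforms divided by isoforms on in either) had a median of 0.725 within a line and 0.5 between the stages of different lines, with ranges of 0.455 to 1 and 0.133 to 1. The levels gave the same picture: the 2 libraries of a line correlated at a median rho of 0.863 (0.720 to 0.961), against 0.426 for libraries of different lines. In 13 of 20 lines the closest differentiated library was the line's own, and in the 7 others (A5, A6, B1, C4, C6, D4 and D6) the line's own ranked 2 to 4. Over the 22 beta genes this held in 3 lines and over all 16321 genes tested in 1, where the differentiated C6 library, the one with the least adipocyte marker RNA, was the closest to every line. Starting from the differentiated libraries, the line's own was the closest in 12 lines over gamma A and B, 3 over beta and 7 over all genes. With each gene centred on the mean of its stage, the counts starting from the undifferentiated libraries were 16, 9 and 14 lines. Starting from the differentiated libraries they were 15, 8 and 17. Over all genes too the lines are then recognised in most cases, and from the differentiated side in more lines than over gamma A and B.

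**Figure D5:**
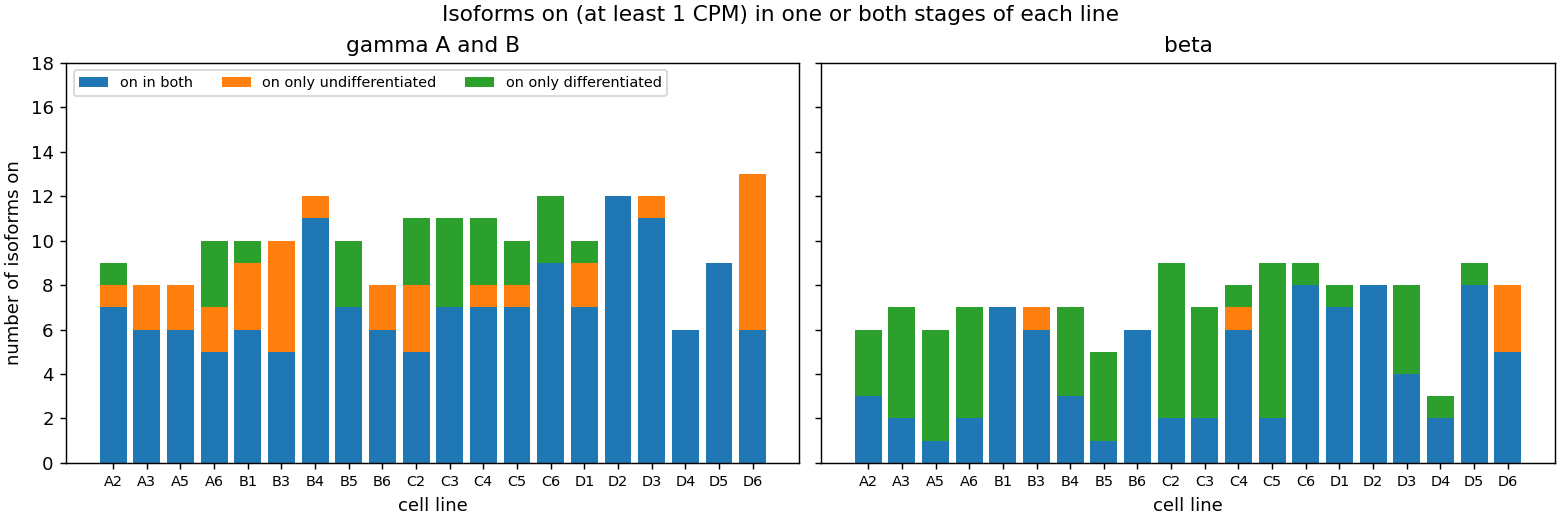
Number of gamma A and B isoforms (left) and beta genes (right) on in both stages, only before or only after differentiation, for each line. D2, D4 and D5 have one colour on the left, D6 has the most losses (7 of 13), and gains dominate on the right.

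D6 and B3 lost the most. Over all genes tested, centred on the mean of their stage, the 2 libraries of D6 correlated least of any line (rho = 0.00837). The line's own differentiated library there ranked 10. Over gamma A and B, centred in the same way, it was the closest (rho = 0.725). The part of this weak pairing in the losses of D6 was not tested. D6 had 13 gamma A and B isoforms on before differentiation, the most of any line, and lost 7 of them: Pcdhga2, Pcdhga3, Pcdhga5, Pcdhga7, Pcdhga8, Pcdhgb4 and Pcdhgb7. The gamma A and B sum went from 66.1 to 21.3 CPM in D6 and from 94.0 to 20.5 CPM in B3, which lost 5 of 10 isoforms. In both lines Pcdhgc3 was lower too after differentiation, as given above. Adipocyte markers summed to 6668 CPM in D6 and 4515 CPM in B3 after differentiation, within the range of the other lines. Mesenchymal progenitor markers went from 1700 to 627 CPM in B3 and from 899 to 206 CPM in D6. Differentiated B3 had the highest sums of skeletal muscle markers (90.0 CPM, median 28.3 CPM, with Myod1, Myf5 and Myog at 0.353 CPM or less in every library, so that Des makes up nearly all of it) and of immune markers (7.92 CPM, median 2.97 CPM), and the part of these in the losses was not tested. The isoform most often lost was Pcdhgb4, together with Pcdhgb7, in 5 lines each.

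The stage-to-stage correlation over the 20 lines, tested for each gene by permutation with adjustment over all genes, was positive and called for 27 of the 37 members tested (16 of 19 gamma A and B), against 22.1% of all genes; by Spearman's rho it was called for 20, against 15.3%. The median Pearson r on log2 CPM was 0.72 over the gamma A and B isoforms, 0.56 over the beta genes tested and 0.30 over all genes tested. These counts and medians include Pcdhga5, Pcdhga8 and Pcdhga11, whose lines fall into separate groups. A member could pass the filter through the few libraries in which it is high, so the counts and medians describe the members tested and support nothing further. The members tested also varied more between lines than all genes tested, as given above without matching by level. Pcdhga2 reached r = 0.85 (adjusted permutation p = 0.000589; rho = 0.85, adjusted p = 0.00156), and r was 0.82 without the farthest lines, B3 and B1. Pcdhga3 reached r = 0.86 (adjusted permutation p = 0.000589; rho = 0.80, adjusted p = 0.00193) and 0.76 without D5 and C6. Pcdhgb6 reached r = 0.80 (adjusted permutation p = 0.00147; rho = 0.80, adjusted p = 0.00156) and 0.83 without B3 and C4. For Pcdhgb5, Pcdhgb7 and Pcdhgb8, r was 0.81, 0.76 and 0.82, each with an adjusted permutation p of 0.00297 or less and each 0.66 or more without the farthest lines.

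For Pcdhga5, Pcdhga8 and Pcdhga11 no r over all lines is given, because the lines fall into separate groups. Within the 15 lines where Pcdhga8 or Pcdhga11 was off before differentiation, no relation between the stages passed the test for Pcdhga8 (r = 0.23, permutation p = 0.402, rho = 0.30, p = 0.277) or Pcdhga11 (r = 0.04, permutation p = 0.874, rho = 0.12, p = 0.664). In the beta cluster, Pcdhb17 had r = 0.80 (adjusted permutation p = 0.00085; rho = 0.67, adjusted p = 0.0218), which was 0.69 without A5 and D5. Pcdhb22 had r = 0.64 (adjusted permutation p = 0.0196; rho = 0.48, adjusted p = 0.125). Without the farthest lines, the permutation p-values were not adjusted. Among the called members they were highest for Pcdhac2, Pcdhgb2 and Pcdhga6, whose calls thus rest in part on those lines. Pcdhac2 had r = 0.42 without C6 and D5 (permutation p = 0.0817). Pcdhgb2 had r = 0.43 without D2 and A3 (p = 0.0775), and Pcdhga6 r = 0.36 without D2 and D6 (p = 0.143). Over all lines, an unadjusted permutation p of 0.011 for Pcdhgb2 became 0.0492 after adjustment. Other called members exceeded 0.011 without their farthest lines, among them Pcdhga4 (p = 0.043), Pcdhgb1 (0.041), Pcdhgb4 (0.029), Pcdhgc5 (0.028) and Pcdhb22 (0.020). Whether they would be called after adjustment was not tested. Pcdhgc3 (r = 0.42, adjusted permutation p = 0.184; rho = 0.49, adjusted p = 0.118) was not called.

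Between the stages, 0 of the 19 gamma A and B isoforms rose and 3 fell: Pcdhgb2, Pcdhgb4 and Pcdhga9 (edgeR, adjusted p under 0.05). At an unadjusted p under 0.05, and with DESeq2, the count that rose was 0 as well. Over all genes 43.6% rose and 37.1% fell. Pcdhgb4 was at 0.546 to 9.003 CPM (median 4.13 CPM) before and 0.0810 to 4.89 CPM (median 1.39 CPM) after differentiation, and only D2 was higher after it. The log2 fold change of Pcdhgb4 was -1.26 ± 0.365 (SE; adjusted p = 0.00194). Pcdhgb2 was at 5.78 to 28.3 CPM (median 11.2 CPM) before and 3.15 to 14.3 CPM (median 9.06 CPM) after, lower in 16 lines, with a log2 fold change of -0.54 ± 0.183 (adjusted p = 0.00743); 10.7% of the 100-base stretches of its variable exon recur in another member. Pcdhga9 stayed at 0.579 CPM or less and its call was near the threshold (adjusted p = 0.0477). The groups overlap for all 3. With the line as a replicate block, 6 fell, now with Pcdhgb6 (log2 fold change -0.57, adjusted p = 0.00337), Pcdhgb7 (-0.69, adjusted p = 0.00956) and Pcdhga11 (-1.32, adjusted p = 7.92e-05), and Pcdhga6 rose (0.56, adjusted p = 0.0173), against 39.8% of all genes that fell and 44.5% that rose in that fit. Pcdhga11, on in few lines, was higher after differentiation in 2 lines only.

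Counted over all members, 7 of the 37 tested rose and 4 fell, so that 11 changed in either direction, against 80.7% of all genes. This fit does not pair the libraries of a line, and the members were not compared with genes of like level. The fit with a replicate block for the line gave 12 that rose and 7 that fell. Over all genes the shares were 43.6% and 37.1%, and 44.5% and 39.8% with the block. The choice of leading isoform among gamma A and B alone was the same in both stages in 15 lines. Pcdhgb2 led in 12 lines before and 15 after differentiation, Pcdhga5 in B1 and D1 at both stages and in C4 before, and Pcdhgb6 in A3 at both. The leader changed from Pcdhga8 to Pcdhgb2 in B3, from Pcdhga5 to Pcdhgb2 in C4, from Pcdhga11 to Pcdhgb2 in C6, from Pcdhga11 to Pcdhga3 in D5 and from Pcdhga8 to Pcdhga6 in D6.

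Of 20 tested genes for promoter choice and silencing, 5 rose and 12 fell, against 43.6% and 37.1% of all genes, and 6 differed between lines, against 29.6%. Changes in either direction were thus about as common as over all genes (80.7%). Dnmt1, the maintenance DNA methyltransferase, fell from a median of 503 to 245 CPM (log2 fold change -1.05 ± 0.0889, adjusted p = 5.91e-14), and Trim28, a co-repressor of silent chromatin, from 491 to 226 CPM (-1.03 ± 0.0673, adjusted p = 1.82e-17). Smchd1, which represses clustered protocadherins in mouse, fell from 180 to 101 CPM (-0.88 ± 0.0677, adjusted p = 2.82e-15), and Ctcf from 197 to 111 CPM (-0.81 ± 0.0709, adjusted p = 1.50e-13). Dnmt3a, a de novo methyltransferase, rose from 29.9 to 75.5 CPM (1.37 ± 0.0996, adjusted p = 5.66e-16), as did the demethylase genes Tet2 (1.23 ± 0.112, adjusted p = 4.85e-13) and Tet3 (0.41 ± 0.118, adjusted p = 0.00165). Dnmt3b, which methylates the clustered protocadherin promoters in mouse, was at a median of 4.92 CPM before and 4.82 CPM after (log2 fold change 0.04 ± 0.128, adjusted p = 0.793). The median log2 fold change of this list was -0.32.

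Of 18 genes for partners and signalling of clustered protocadherins, 2 rose and 16 fell (43.6% and 37.1% of all genes), with a median log2 fold change of -0.54. Ret, a receptor tyrosine kinase that binds them in neurons, fell from a median of 7.62 to 0.413 CPM (-4.38 ± 0.322, adjusted p = 7.92e-16), Cdh2, the classical N-cadherin, from 201 to 37.5 CPM (-2.25 ± 0.203, adjusted p = 3.36e-13) and Pak1 from 15.9 to 3.14 CPM (-1.80 ± 0.249, adjusted p = 1.94e-08). Ptk2b, a kinase that alpha and gamma isoforms inhibit, rose (0.99 ± 0.419, adjusted p = 0.0292), as did Marcks, a substrate of protein kinase C (0.95 ± 0.259, adjusted p = 0.00101).

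Of 12 tested protocadherins and related cadherins outside the clusters, 3 rose and 8 fell (43.6% and 37.1% of all genes), with a median log2 fold change of -1.70. Fat1, a giant atypical cadherin, fell from a median of 644 to 81.9 CPM (-3.05 ± 0.128, adjusted p = 8.47e-24), Pcdh20 from 1.05 to 0.217 CPM (-3.29 ± 0.821, adjusted p = 0.000398) and Fat2 from 0.350 to 0.104 CPM (-2.79 ± 0.513, adjusted p = 5.17e-06). Pcdh10, Dchs1 and Pcdh12 rose.

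Of 13 genes flanking the clusters, 8 rose and 3 fell, where 43.6% and 37.1% of all genes did, and the median log2 fold change was 0.18. Changes in either direction were about as common as over all genes (80.7%). Taf7, a general transcription factor gene lying between the beta and gamma clusters, rose from a median of 7.91 to 17.3 CPM (1.09 ± 0.0906, adjusted p = 3.18e-14) and was higher in all 20 lines. Slc25a2, a mitochondrial carrier gene in the same interval, stayed at 0.616 CPM or less and rose as well (1.06 ± 0.330, adjusted p = 0.00358). On the alpha side, Tmco6 rose from 7.87 to 17.2 CPM (1.08 ± 0.0998, adjusted p = 7.12e-13), whereas Wdr55 fell from 69.5 to 33.1 CPM (-1.04 ± 0.0910, adjusted p = 1.44e-13) and Hars, the histidyl-tRNA synthetase gene, from 203 to 101 CPM (-0.99 ± 0.0706, adjusted p = 2.72e-16). On the gamma side, the formin gene listed as Diap1 fell from 96.4 to 52.6 CPM (-0.87 ± 0.0716, adjusted p = 2.32e-14).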

How the data were processed

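Per the labels' protocols, poly(A) RNA was sequenced as 100 bp read pairs from stranded libraries. Per the submitters' processing notes, reads were aligned with STAR to mm9 and counted with HTSeq; their versions, the annotation and the strand setting were not given in the sources used. How reads in the exons shared within a cluster were assigned is not given either. The deposited values are raw counts per gene symbol. The 5 tally lines of each file were left out (unassigned reads without a gene: 6.53 to 7.89% before and 4.35 to 5.27% after differentiation), as were 125 symbols that differ from another only in letter case.

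Genes with at least 10 counts in at least 2 of 40 libraries (16321) were tested with edgeR 4.0.16 (TMM, quasi-likelihood F-tests, Benjamini-Hochberg, 0.05) in R 4.3.3: the stage alone, and the lines next to the stage. DESeq2 1.42.0 and limma 3.58.1 (voom), other filters, scaling and thresholds, thinned counts and omitted lines were alternatives. Scripts were tested on simulated data. The same line was grown in both stages, which pairs the libraries (stage-centred Spearman's rho of a line's libraries over all genes 0.00837 to 0.373, 0 libraries identical). Correlations used 100000 permutations; 1e-05 is the smallest p these can give.

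Members and gene lists were chosen with earlier results of these data known. Named members are those on in at least 5 lines in either stage or at 5 CPM or more in any library, the C-type isoforms and leading isoforms; in other lists, up to 3 genes per direction with the largest changes, besides Ctcf and Dnmt3b, chosen after their values were seen. RefSeq matched 58 of 58 members; exon lengths came from GENCODE (57 matched). Not in the files' kept symbols were Wapl, Wiz, Lrif1, Pcdh21, Dchs2, Diaph1, Map2 and Adgre1.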

Additional observations from a re-analysis of the deposited data

How the results depend on the processing

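Under the alternatives run (filterByExpr by stage, no filter on low counts, DESeq2 size factors, DESeq2, limma-voom, without C6 and D5, each line left out), 5 to 9 members rose and 24 to 32 differed between lines, within 1.5 times the 7 and 29 of the report. With each line left out in turn, 6 to 7 members rose, 3 to 4 fell and 26 to 30 differed between lines. The number that fell was 4; it was 2 with filterByExpr by stage, which tests 27 of the 58 members and leaves out Pcdhac2 and Pcdhga9, and 7 with the line as a replicate block, where 12 rose. The block changed the calls of Pcdhb12, Pcdhb14, Pcdhb16 to Pcdhb19, Pcdhga6, Pcdhgb6, Pcdhgb7 and Pcdhga11 and no other. Beta genes that differed between lines numbered 6 without C6 and D5, against 10. No named member changed direction past the threshold.

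The share of on isoforms that stayed on depended on the threshold. At 5 CPM it was 65.8% over all members, 63.6% over gamma, 50.0% over gamma A and B and 83.3% over beta, and at 2 CPM 83.1% over beta (87.4%, 85.5%, 81.5% and 94.4% at 1 CPM); the cause was not tested. At 0.5 CPM, with thinned counts, with plain library totals and without C6 and D5 it moved by less than the SD between lines. DESeq2 size factors moved the median log2 fold change of all genes by 0.01. Per kilobase of the whole exon (chosen after seeing the data), the leading isoform was the same in both stages in 15 lines in beta and in 15 in gamma A and B, the latter taken alone also after seeing the data. By that length 3 beta genes led at each stage, against 2 by coding length. By overlap of the on sets, 8 lines had their own library as the closest over all members, against 10 by level. Members at a few counts per library are limited by depth.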
